A study of Mus musculus with 26 samples.

Results

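Striatum of wild-type mice was compared at 8 weeks and at 4 weeks of age by RNA sequencing. The series asks how R6/1 mice, a model of Huntington's disease that expresses a fragment of mutant human huntingtin, differ from wild type, and its wild-type libraries give the same tissue in juvenile and in young adult mice. The 6 wild-type libraries used, of 26 in the series, are 3 from 4-week and 3 from 8-week animals that were sequenced as the wild-type side of the R6/1 comparison at each age. These mice carry no transgene and no treatment is named for them. The sources used here do not give strain, sex, or whether each library is 1 animal. Brain tissue was frozen and its RNA was extracted with Trizol, and libraries were made from total RNA with the TruSeq kit, per the labels' protocols. The deposited table of each age holds 1 value per gene and group, in FPKM (fragments scaled by transcript length and by the number of mapped fragments, so that levels can be compared between genes), and none per library. Genes were joined by symbol, and the 8-week values were scaled so that the median over the 14176 shared genes equalled that of the 4-week values. Of these, 14087 had a mean of at least 0.5 FPKM and were compared. The R6/1 columns of the same tables, 3 libraries at each age, were scaled in the same way and are given as other libraries of the same ages. Their change from 4 to 8 weeks can hold effects of the transgene as well as of age, and the 2 were not told apart. Further wild-type pools are 2 libraries at 10 weeks, from mice injected with a control adeno-associated virus (AAV), and 3 libraries at 1 year. The 1-year libraries are the wild-type side of another comparison in the series, that of CHL2 knock-in mice. These pools come from 2 further tables, so age, experiment and table cannot be told apart across the wild-type pools.

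The striatum is the input nucleus of the basal ganglia, and most of its neurons are GABAergic spiny projection neurons that receive glutamate from cortex and thalamus and dopamine from the midbrain. Between weaning and adulthood in the mouse, myelination of the forebrain goes on, the last neurons and glia of the postnatal germinal zones are added, and projection neurons gain spines, channels and receptors. The lateral ventricle borders the striatum and carries the choroid plexus and the ependyma, and the septum, pallidum, thalamus, hypothalamus and cortex lie close to it, so dissected striatum can hold some of each.

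No spread between libraries can be had from these tables, so no difference between ages has a test or an error here, and each change below describes 2 pools. The 2 tables were also processed separately, so age and table cannot be told apart. A change is given as log2((8-week FPKM + 1) / (4-week FPKM + 1)), which understates the change of genes near or under 1 FPKM, and a gene is counted as higher or lower when it lies past 1.5-fold on that scale. In bulk tissue, more cells of a type and more RNA per cell cannot be told apart. As a yardstick, the median absolute difference was 0.12 between the wild-type ages, 0.11 between the R6/1 ages, 0.07 between R6/1 and wild type within the 4-week table and 0.11 within the 8-week table. Striatal identity was present at both ages: Ppp1r1b (the phosphatase inhibitor DARPP-32 of projection neurons) stood at 848 FPKM at 4 weeks and 980 FPKM at 8 weeks, Penk (enkephalin) at 761 and 804 FPKM, and Drd2 (the D2 dopamine receptor) at 83.3 and 104 FPKM.

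At 8 weeks 164 genes were higher past 1.5-fold, which is 1.16% of the genes compared, and 170 were lower, which is 1.21%. Past 2-fold, 27 genes (0.192%) were higher and 32 (0.227%) lower. Over all 14087 genes the median change was -0.01 and 48.1% had a higher value at 8 weeks, and most genes differed little between the pools. In R6/1 striatum 65 genes (0.461%) were higher and 308 (2.19%) lower at 8 than at 4 weeks. Between the genotypes within a table, 0.22% of genes at 4 weeks and 3.41% at 8 weeks were past 1.5-fold in either direction. Of the 164 genes higher in wild type, 113 also had a higher value in R6/1 and 23 were past 1.5-fold there. Of the 170 lower in wild type, 149 also had a lower value in R6/1 and 85 were past 1.5-fold. Only 4 genes were past 1.5-fold in opposite directions in the 2 genotypes, Gm10754 (higher in wild type), Amd1, Gdf1 and Rpl26 (lower in wild type), which are named because they are so few. Across the 14087 genes the wild-type and R6/1 changes had a Pearson correlation of 0.38 and a Spearman correlation of 0.30. Genes are not independent replicates, and both comparisons take their ages from the same 2 tables.

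**Figure D1:**
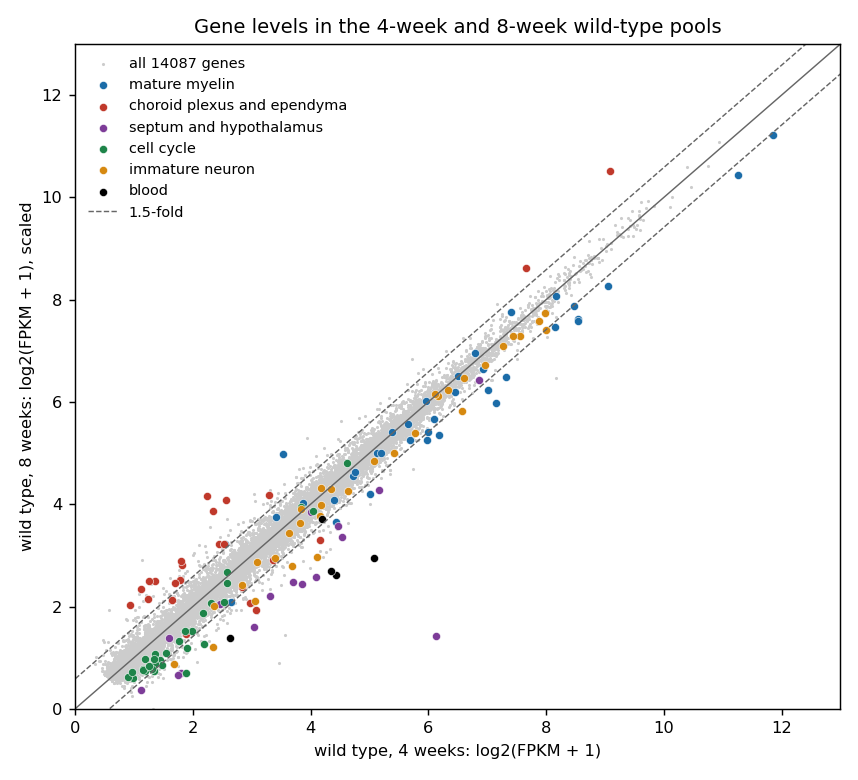
Each grey point is 1 of the 14087 genes, with its level in the 4-week wild-type pool on the x axis and in the 8-week wild-type pool on the y axis, both as log2(FPKM + 1), and coloured points are genes of 6 lists. Most grey points lie between the dashed 1.5-fold lines, myelin, cell cycle, immature neuron, blood and septum and hypothalamus genes lie mostly below the diagonal, and 18 of the 24 choroid plexus and ependyma genes lie above it.

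Transcript length moved with the wild-type comparison. Genes were ordered by the longest transcript of their symbol in the GENCODE M21 annotation, which was found for 98.9% of them. The median change was -0.13 over the 1393 genes with the shortest transcripts (median 1059 bases) and 0.17 over the 1393 with the longest (median 8383 bases). The Spearman correlation of change with length across genes was 0.43 in wild type and 0.03 in R6/1. Within the 4-week table, R6/1 against wild type gave a correlation of 0.48 with length, and within the 8-week table it gave -0.11. The steep relations are thus those that involve the 4-week wild-type pool, which both of them share. For lists of unusually long or short transcripts the median is therefore also given after subtracting the median change of genes of similar length, called the length-adjusted median below. Similar length here means the same 1 of 10 groups of genes ordered by length, so very long transcripts can keep part of the relation. Genes called past 1.5-fold below are called on unadjusted values. Of 133 such genes, 115 stayed past it after the adjustment, 16 did not, and the rest had no transcript length.

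**Figure D2:**
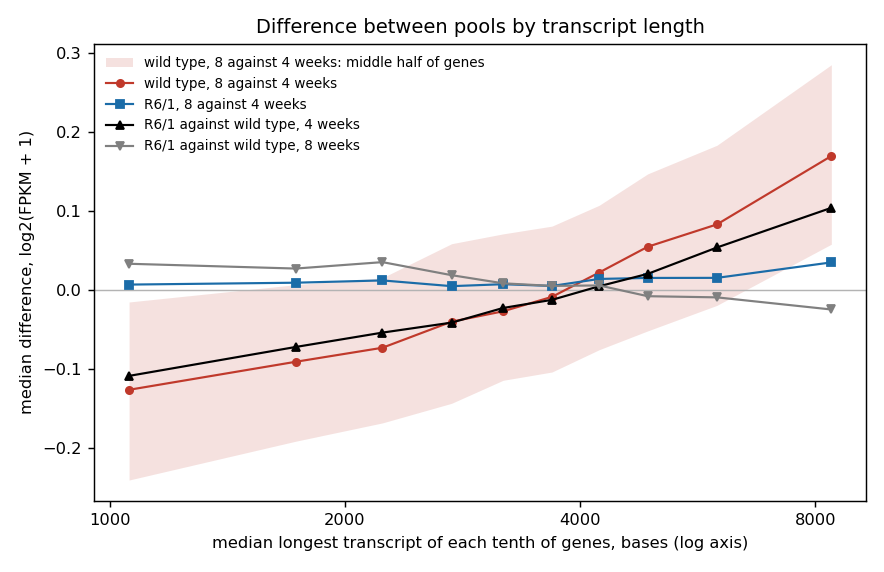
Median difference in log2(FPKM + 1) for 10 groups of genes ordered by transcript length (x axis, bases, log scale), with 1 line per pair of pools and shading for the middle 50% of genes in the wild-type age comparison. The wild-type line climbs from -0.13 to 0.17 and the line of R6/1 against wild type at 4 weeks from -0.11 to 0.10, while the R6/1 age line stays between 0.00 and 0.03.

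Genes of dividing cells were lower at 8 weeks. Of 30 cell cycle genes compared, 27 had a lower value and 5 were past 1.5-fold, none was higher past it, and the median change was -0.40, against -0.43 in R6/1. Ube2c, the ubiquitin-conjugating enzyme of the anaphase-promoting complex, went from 2.70 FPKM at 4 weeks to 0.633 FPKM at 8 weeks in wild type, and from 1.87 to 0.321 FPKM in R6/1. Rrm2, the ribonucleotide reductase subunit that supplies deoxynucleotides for replication, went from 3.58 to 1.42 FPKM in wild type and from 2.96 to 0.628 FPKM in R6/1. Top2a, the topoisomerase of dividing cells, stood at 2.73 FPKM in both 4-week pools and at 1.28 FPKM in wild type and 0.504 FPKM in R6/1 at 8 weeks. Both 8-week pools were thus below both 4-week pools for these 3 genes. Birc5 (survivin, of the chromosomal passenger complex) and Cdc20 (an activator of the anaphase-promoting complex) were the other 2 genes past 1.5-fold, with changes of -0.62 and -0.59. Cyclins that neurons and glia also express did not follow: Ccnd1 was at 13.3 and 14.3 FPKM and Ccnd2 at 23.6 and 27.0 FPKM. All the dividing-cell genes were scarce at both ages, and the list median depended on the added constant, as given in the closing section.

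Promoters of many cell cycle genes carry a CCAAT box, the binding motif of the factor NF-Y, and some carry the cell cycle homology element TTTGAA. The 250 bases before the start of 2 of the genes above are shown 5′ to 3′ on the gene's strand, because both were lower at 8 weeks in both genotypes. They are RefSeq sequences of build GRCm38.p6, Ube2c at chr2:164769679-164769928 (plus strand) and Top2a at chr11:99024190-99024439 (minus strand), and capitals mark CCAAT or its reverse complement ATTGG and TTTGAA or its reverse complement TTCAAA.
Ube2c: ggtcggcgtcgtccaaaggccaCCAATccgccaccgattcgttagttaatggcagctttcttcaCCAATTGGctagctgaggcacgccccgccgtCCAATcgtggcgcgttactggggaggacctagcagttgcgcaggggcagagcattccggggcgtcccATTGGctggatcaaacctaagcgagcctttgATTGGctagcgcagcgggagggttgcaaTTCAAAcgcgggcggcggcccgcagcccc
Top2a: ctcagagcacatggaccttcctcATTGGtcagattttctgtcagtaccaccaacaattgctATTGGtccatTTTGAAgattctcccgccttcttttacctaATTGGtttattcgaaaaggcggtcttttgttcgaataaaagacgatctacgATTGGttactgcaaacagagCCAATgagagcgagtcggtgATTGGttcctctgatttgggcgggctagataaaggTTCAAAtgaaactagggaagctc
Each window held 6 CCAAT matches, counting both strands and, in Ube2c, an overlapping pair. Ube2c held 1 match to TTTGAA and Top2a held 2. Of 24 cell cycle genes with a promoter in the RefSeq table, 20 (83.3%) had CCAAT in any of their windows of this kind. The share was 37.5% of all 27025 genes in the table, which include genes not compared here. TTTGAA was found for 8 of the 24 (33.3%), against 18.3% of all genes. A match is a description of these letters and not evidence of binding.

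Genes of immature and migrating neurons were also lower. Ciliated ependyma genes, given below, were lower in both genotypes too, and their part in this list and in the cell cycle list was not tested. Of 32 compared, 29 had a lower value at 8 weeks, 7 were lower past 1.5-fold and none was higher past it, with a median change of -0.26 in wild type and -0.27 in R6/1. The homeobox factors Dlx1 and Dlx2 drive the specification of forebrain GABAergic neurons. Dlx1 went from 16.3 to 6.81 FPKM in wild type and from 13.1 to 6.12 FPKM in R6/1, and its row shares its listed position with another gene. Dlx2 went from 7.33 to 3.30 FPKM in wild type and from 6.62 to 3.46 FPKM in R6/1. Both genes stayed near the 8-week level in the older wild-type pools, with Dlx2 at 3.26 FPKM at 10 weeks and again at 1 year. Igfbpl1, an insulin-like growth factor binding protein relative of young neurons, went from 4.05 to 1.30 FPKM and was at 1.06 and 0.995 FPKM in the older pools. Cd24a, a surface glycoprotein of neuroblasts and ependyma, went from 11.9 to 5.89 FPKM, and Sp8, a zinc finger factor of olfactory bulb interneuron precursors, from 2.20 to 0.837 FPKM. The more abundant members Marcksl1, a MARCKS-like actin regulator, and Nnat (neuronatin) had changes of -0.75 and -0.60. Growth cone and tubulin genes, which adult neurons keep, were also lower, though not past 1.5-fold. Gap43 was at 252 and 213 FPKM, Tubb3 at 234 and 192 FPKM and Tubb2a at 188 and 155 FPKM, changes near the list median.

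Genes of the oligodendrocyte lineage were mostly lower at 8 weeks. How much white matter each pool held is unknown, and its part in these values was not tested. Of 36 mature myelin genes, 14 were lower past 1.5-fold, 2 were higher, and 28 had a lower value at 8 weeks, with a median change of -0.37 in wild type and -0.45 in R6/1. The length-adjusted median was -0.27. Summed over the list, the level went from 10080 FPKM to 6555 FPKM. Mbp (myelin basic protein), the most abundant, stood at 3720 FPKM at 4 weeks and 2393 FPKM at 8 weeks in wild type, and at 3632 and 1991 FPKM in R6/1. Both 4-week pools lay close together and above both 8-week pools. In the older wild-type pools Mbp lay near its 8-week value, at 2266 FPKM at 10 weeks and 2517 FPKM at 1 year.

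Within the myelin list the genes differed widely. Gsn, the actin-severing protein gelsolin, had the lowest change at -1.18 and stood at 142, 61.9, 50.2 and 36.6 FPKM in the wild-type pools at 4 weeks, 8 weeks, 10 weeks and 1 year. Cldn11, the claudin of the myelin tight junction, stood at 372, 191, 157 and 129 FPKM in the same order. Mal, a raft proteolipid of myelin, went from 372 to 197 FPKM, Mog, a surface antigen of the outer sheath, from 159 to 88.6 FPKM, and Cnp, a cytoplasmic phosphodiesterase, from 529 to 307 FPKM. Genes for the myelin galactolipids were among those lower: Ugt8a, which makes galactosylceramide, went from 71.4 to 40.1 FPKM and Fa2h, which hydroxylates its fatty acid, from 62.0 to 37.0 FPKM. Tspan2 (a tetraspanin), Mag (myelin-associated glycoprotein), Mobp and the transcription factor Nkx6-2 were lower past 1.5-fold as well, with changes between -0.77 and -0.60. Each of the 14 genes lower past 1.5-fold had a lower value in R6/1 at 8 weeks too. Against them, Il33 and Klk6 were higher. Il33, an alarmin cytokine that oligodendrocytes and astrocytes store in the nucleus, stood at 10.5 FPKM at 4 weeks, 30.7 at 8 weeks, 23.1 at 10 weeks and 56.9 at 1 year in wild type, and at 10.6 and 28.0 FPKM in R6/1 at 4 and 8 weeks. It was thus lowest in both 4-week pools. Klk6, a secreted serine protease of oligodendrocytes, went from 4.87 to 8.35 FPKM in wild type, while in R6/1 it was at 6.37 and 6.69 FPKM.

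Earlier stages of the lineage were lower too. Among 20 genes of newly formed oligodendrocytes, 18 had a lower value and 6 were past 1.5-fold, all lower, with a median of -0.36 in wild type and -0.43 in R6/1. Enpp6, a choline phosphodiesterase that marks oligodendrocytes as they begin to myelinate, went from 9.10 to 5.60 FPKM and stood at 1.99 FPKM at 10 weeks and 3.37 FPKM at 1 year. Sirt2, a tubulin deacetylase of myelinating cells, went from 180 to 113.6 FPKM in wild type and from 177 to 112 FPKM in R6/1. Cnksr3, a signalling scaffold, went from 6.43 to 3.57 FPKM, and Rras2, a small GTPase, from 8.99 to 5.18 FPKM. Kif19a (a kinesin) and Tmem163 had changes of -0.84 and -0.71. Bcas1, which marks early myelinating cells, was the most abundant exception and stood at 84.5 and 86.3 FPKM. Of 18 precursor genes, 14 had a lower value and 2 were past 1.5-fold: Gpr17, a receptor of committed precursors, went from 35.6 to 21.7 FPKM, and Olig1, a lineage transcription factor, from 135 to 85.5 FPKM. The precursor receptors Pdgfra, at 14.1 and 13.6 FPKM, and Cspg4, at 4.89 and 4.67 FPKM, were nearly level, and these 2 were picked as the classical precursor markers after the values were seen. A pair of further genes, also picked after their values were seen because they were lowest in the oldest pool, were 9630013A20Rik, at 7.10, 3.10, 1.36 and 0.61 FPKM in the wild-type pools from 4 weeks to 1 year, and Rnf122, a ubiquitin ligase, at 8.87, 4.07, 2.03 and 1.64 FPKM.

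**Figure D3:**
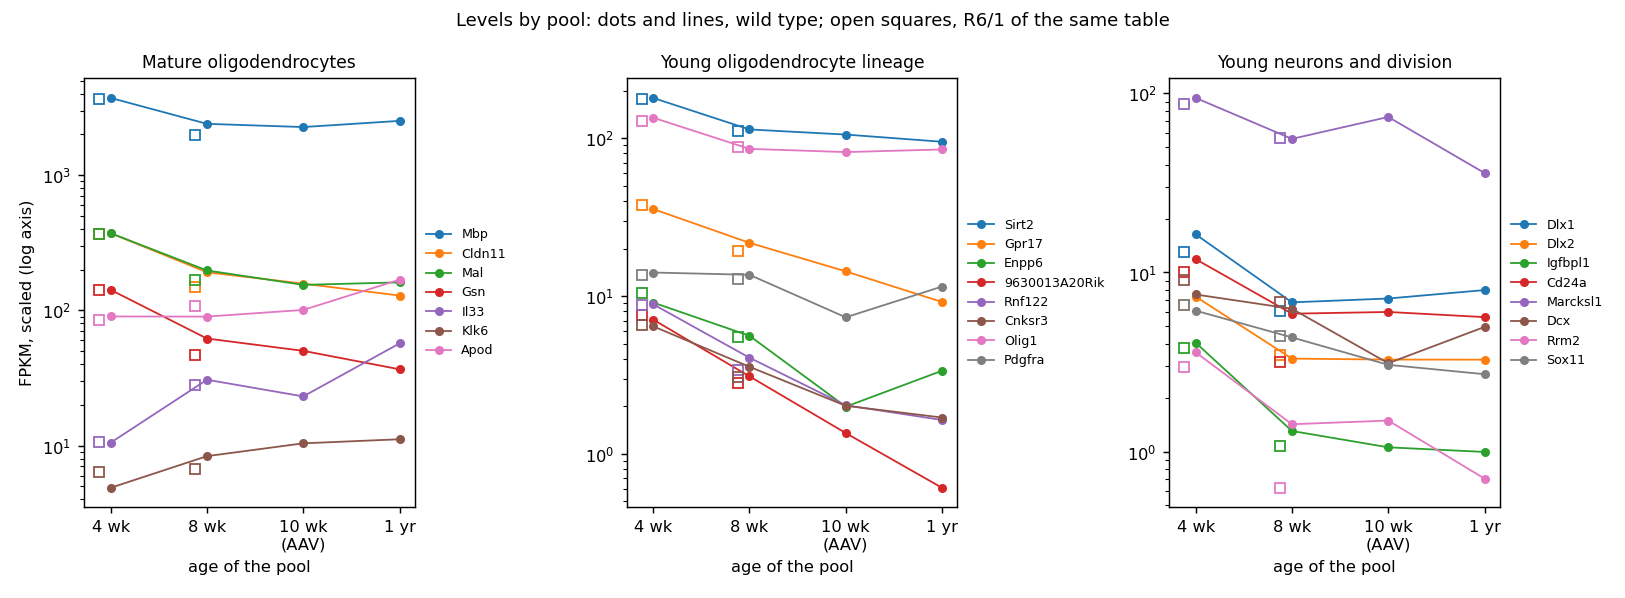
FPKM on a log axis in the wild-type pools at 4 weeks, 8 weeks, 10 weeks (control AAV) and 1 year (dots joined by lines) and in the R6/1 pools at 4 and 8 weeks (open squares, shifted left), for mature oligodendrocyte genes, young lineage genes, and genes of young neurons and division. Mbp, Cldn11, Mal and Gsn lie lower in both 8-week pools than in both 4-week pools, Il33 lies higher, and 9630013A20Rik reaches 0.61 FPKM at 1 year.

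Cholesterol synthesis genes, which myelinating cells use heavily, were slightly but almost uniformly lower. Of 25 compared, 23 had a lower value at 8 weeks, 1 was lower past 1.5-fold and none was higher past it, and the median change was -0.27 in wild type, -0.26 length-adjusted and -0.40 in R6/1. Fdps (farnesyl diphosphate synthase) went from 9.68 to 5.91 FPKM in wild type and from 8.78 to 6.54 FPKM in R6/1. Sc4mol, the sterol C4-methyl oxidase, was at 70.7 and 57.9 FPKM in wild type and at 61.5 and 41.0 FPKM in R6/1. Srebf2, the master regulator of the pathway, was nearly level at 62.3 and 61.1 FPKM. Srebf1, the fatty acid counterpart of Srebf2, was 1 of the 2 genes with a higher value, with a change of 0.17. In the 10-week pool several of these genes stood at or above the 4-week value, for example Fdps at 13.2 FPKM and Sc4mol at 82.0 FPKM, so the order of ages was not monotonic. Of 14 genes of cholesterol export and turnover, none was past 1.5-fold, and the median was 0.09. Apoe, the main brain apolipoprotein, was at 1128 and 1032 FPKM and Cyp46a1, the neuronal cholesterol 24-hydroxylase, at 133 and 151 FPKM.

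NF-Y sites also sit beside sterol-regulatory elements in many of these promoters. The windows of Cyp51 (lanosterol demethylase), Mvd (mevalonate diphosphate decarboxylase) and Idi1 (isopentenyl diphosphate isomerase) are shown as 3 steps of the pathway with 1 window each in the table, and were chosen after their values were seen. Their changes were -0.51, -0.48 and -0.34. The windows lie at chr5:4104698-4104947 (minus strand), chr8:122443423-122443672 (minus strand) and chr13:8885356-8885605 (plus strand) of RefSeq build GRCm38.p6, with the same bases in capitals as above.
Cyp51: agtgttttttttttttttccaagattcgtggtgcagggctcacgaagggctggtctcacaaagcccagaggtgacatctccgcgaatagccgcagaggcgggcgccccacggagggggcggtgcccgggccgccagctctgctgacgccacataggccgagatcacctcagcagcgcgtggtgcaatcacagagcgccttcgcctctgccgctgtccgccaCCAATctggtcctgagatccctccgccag
Mvd: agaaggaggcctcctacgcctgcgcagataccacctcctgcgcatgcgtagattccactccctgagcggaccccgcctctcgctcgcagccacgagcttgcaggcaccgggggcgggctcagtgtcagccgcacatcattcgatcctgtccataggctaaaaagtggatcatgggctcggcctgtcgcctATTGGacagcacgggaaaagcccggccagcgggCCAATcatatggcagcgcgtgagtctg
Idi1: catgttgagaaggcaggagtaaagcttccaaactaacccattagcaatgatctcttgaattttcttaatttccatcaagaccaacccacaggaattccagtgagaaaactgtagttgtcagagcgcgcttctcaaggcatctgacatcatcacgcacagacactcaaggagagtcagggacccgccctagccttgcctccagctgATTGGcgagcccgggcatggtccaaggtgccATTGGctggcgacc
Cyp51 held 1 CCAAT match and Mvd and Idi1 held 2 each, and none held TTTGAA. Of 17 cholesterol synthesis genes with a promoter in the table, 16 (94.1%) had CCAAT in the 250 bases before any of their listed starts. The share was 37.5% of all genes in the table. For TTTGAA it was 1 of the 17 (5.88%), against 18.3%.

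Among 23 genes of fatty acid and sphingolipid synthesis, 5 were lower past 1.5-fold and none was higher, with a median of -0.08. These were Ugt8a and Fa2h from the myelin list, Gal3st1, which sulfates galactosylceramide and went from 20.7 to 10.5 FPKM, Elovl1, an elongase of very long fatty acids, from 23.3 to 14.8 FPKM, and Fabp7, a fatty acid binding protein of radial glia and astrocytes, from 52.5 to 24.7 FPKM. The abundant desaturases Scd2 and Scd1 were nearly level, at 463 and 452 FPKM and at 80.4 and 86.6 FPKM. The median of 15 genes of ketone and lactate use was -0.04.

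Identity genes of the spiny projection neurons leaned higher. Of 40 genes shared by both projection pathways, 39 had a higher value at 8 weeks and 4 were past 1.5-fold, none was lower past it, and the median was 0.25, or 0.27 length-adjusted. Ano3, a calcium-modulated scramblase family member, went from 39.1 to 66.9 FPKM, Cnr1, the CB1 cannabinoid receptor, from 55.5 to 94.2 FPKM, Lrrc10b from 77.3 to 127 FPKM and Itpr1, the endoplasmic reticulum calcium release channel, from 95.6 to 152 FPKM. In the older wild-type pools these 4 genes lay between 20.5 FPKM (Ano3 at 10 weeks) and 96.4 FPKM (Itpr1 at 1 year), each below its 8-week value. Pcp4, a calmodulin regulator, was at 1348 and 1539 FPKM, Ppp3ca, the calcineurin catalytic subunit, at 616 and 772 FPKM, and Pde1b, a calmodulin-dependent phosphodiesterase, at 381 and 430 FPKM. In R6/1 all 40 had a lower value at 8 than at 4 weeks, with a median of -0.53.

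Genes of the direct and indirect pathways gave smaller values, and none of the 22 was past 1.5-fold. The 11 direct pathway genes had a median of -0.02: Drd1a (the D1 dopamine receptor) was at 59.2 and 68.5 FPKM, Tac1 (substance P) at 156 FPKM in both pools, Pdyn (dynorphin) at 50.6 and 44.9 FPKM, and Chrm4 (the M4 muscarinic receptor) at 37.7 and 43.6 FPKM. Of the 11 indirect pathway genes, 9 had a higher value and the median was 0.10, with Adora2a (the adenosine receptor of these neurons) at 119 and 129 FPKM and Gpr6 at 30.1 and 32.2 FPKM. Striatal interneuron genes were mostly level. Of 20 compared, none was higher past 1.5-fold and 3 were lower, with a median of 0.07: Trh (thyrotropin-releasing hormone) with a change of -1.23, Calb2 (calretinin) at 31.3 and 15.1 FPKM and Th (tyrosine hydroxylase) with -0.65. In R6/1 the changes of Trh, Calb2 and Th were -0.69, 0.12 and -0.63. In the authors' deposited table for 8 weeks Calb2 was higher in R6/1 than in wild type by 0.81 log2 units (q = 0.0016). All 3 genes are also expressed outside the striatum. Sst (somatostatin) was at 360 and 363 FPKM and Npy (neuropeptide Y) at 129 and 120 FPKM.

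Glutamate receptor genes differed most in the modulatory NMDA subunits. Grin2b stood at 7.18 FPKM at 4 weeks and 17.4 FPKM at 8 weeks in wild type, and at 11.2 and 12.4 FPKM in R6/1. Grin2a stood at 2.99 and 7.03 FPKM in wild type and at 4.74 and 5.01 FPKM in R6/1. The R6/1 values lay between the 2 wild-type values at both ages for both genes, and the 1-year wild-type pool, at 7.07 FPKM for Grin2b and 2.93 FPKM for Grin2a, lay at the 4-week wild-type level. In the authors' deposited table for 4 weeks Grin2b was higher in R6/1 than in wild type by 0.66 log2 units (q = 0.0145) and Grin2a by 0.68 (q = 0.0145). In the authors' deposited table for 8 weeks both were lower in R6/1, by -0.49 (q = 0.0016) and -0.50 (q = 0.0366). The obligatory subunit Grin1 was at 184 and 199 FPKM. These are very long transcripts, and the 2 changes were 1.17 for Grin2b and 1.01 for Grin2a before and 0.996 and 0.84 after the length adjustment. The adjustment may be incomplete at such lengths, which was not tested. None of 19 AMPA and kainate receptor genes was past 1.5-fold, and their median of 0.08 became -0.04 with the length adjustment. Cnih2, an AMPA receptor auxiliary protein, was at 230 and 183 FPKM and Gria2 at 119 and 144 FPKM. Of 7 metabotropic receptors, 6 had a higher value, with a median of 0.21 that became 0.09 after the adjustment, and Grm5 was at 50.5 and 60.6 FPKM.

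Of 12 GABA-A receptor subunit genes, 10 had a higher value at 8 weeks and none was past 1.5-fold, with a median of 0.20, or 0.17 length-adjusted. The 5 cation-chloride cotransporters all had a slightly higher value, with a median of 0.11, and Slc12a5 (KCC2, which extrudes chloride from mature neurons) was at 130 and 148 FPKM. The 12 dopamine and acetylcholine receptor genes had a median of 0.12, with none past 1.5-fold, and Chrm1 was at 28.5 and 37.0 FPKM. Of 15 serotonin and opioid receptors 1 was higher past 1.5-fold: Htr2a, the 5-HT2A receptor, went from 4.65 to 7.72 FPKM in wild type and was at 7.34 and 5.26 FPKM in R6/1.

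Voltage-gated channel genes leaned higher as a group. Of 52 potassium channel genes, 44 had a higher value and 3 were past 1.5-fold, none lower, with a median of 0.23, or 0.21 length-adjusted, against -0.05 in R6/1. Kcnq3, a subunit of the M-current channel, went from 16.0 to 29.9 FPKM, Kcnh7, an ERG-type channel, from 2.42 to 5.01 FPKM, and Kcnh5, an EAG-type channel, from 2.62 to 4.61 FPKM. In R6/1 the 3 genes were nearly level, Kcnq3 at 21.3 and 22.0 FPKM, and in the 1-year wild-type pool they were back near the 4-week value, Kcnq3 at 16.4 FPKM. Kcnh7 was already higher in R6/1 at 4 weeks in the authors' deposited table, by 0.84 log2 units (q = 0.0145). None of 10 sodium channel genes was past 1.5-fold, 9 had a higher value, and the median was 0.24, or 0.14 length-adjusted. Scn4b, the beta4 subunit of the striatum, was at 266 and 351 FPKM and Scn2a1 at 42.9 and 56.9 FPKM. Of 19 calcium and HCN channel genes 15 had a higher value, with none past 1.5-fold and a median of 0.25, or 0.12 length-adjusted.

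Synaptic genes showed the same lean with few large values. Markers of cortical excitatory neurons moved with the channel, synaptic and activity-induced lists in wild type, with a median of 0.21 and a summed level of 528 and 618 FPKM, and their part in these results was not tested. Of 35 genes of the synaptic vesicle and its release, 27 had a higher value and 3 were past 1.5-fold, with a median of 0.16. In R6/1 the median was 0.04 and 19 of the 35 had a higher value. Unc13c, a vesicle priming factor, went from 18.4 to 30.2 FPKM in wild type and from 20.1 to 29.1 FPKM in R6/1. Syt2, a fast calcium sensor, went from 8.95 to 14.9 FPKM, and Sv2c, the vesicle protein of the basal ganglia, from 13.2 to 21.7 FPKM. In R6/1 the changes of Syt2 and Sv2c were 0.21 and 0.04. Snap25 was at 781 and 956 FPKM and Vamp2 at 516 and 528 FPKM. Of 29 postsynaptic scaffold genes 26 had a higher value and none was past 1.5-fold, with a median of 0.16 that became 0.06 with the length adjustment, and Camk2a was at 422 and 568 FPKM. Cell adhesion genes had a median of 0.13 over 37, which became 0.02 with the adjustment, and the contactin-associated proteins Cntnap5a (5.07 and 9.60 FPKM) and Cntnap5b (3.37 and 5.92 FPKM) were higher past 1.5-fold. Nfasc, neurofascin of the node of Ranvier, was at 81.3 and 60.0 FPKM. Of 51 axon guidance genes only Epha6, an ephrin receptor, was past 1.5-fold, at 5.17 and 10.3 FPKM in wild type and 7.40 and 11.53 FPKM in R6/1. The 22 perineuronal net and brain matrix genes had a median of 0.11, which became 0.0006 with the length adjustment. Among them Nptxr, the neuronal pentraxin receptor that gathers AMPA receptors, was higher past 1.5-fold, from 51.8 to 113 FPKM in wild type and from 42.0 to 62.0 FPKM in R6/1. It was at 118 FPKM at 10 weeks and 51.8 FPKM at 1 year. Bcan, the proteoglycan brevican of the nets, was at 134 and 112 FPKM. The 27 genes chosen for very long transcripts, such as Ank2 (110.5 and 120.5 FPKM) and Dst (38.3 and 44.6 FPKM), all had a higher value, and their median of 0.35 became 0.18 with the length adjustment. Of these Lrp1b, a large lipoprotein receptor relative, was past 1.5-fold with a change of 0.64.

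Activity-induced genes were higher for the most part. Of 38 compared, 30 had a higher value and 3 were past 1.5-fold, with a median of 0.21 in wild type and -0.28 in R6/1. The orphan nuclear receptor Nr4a3 went from 3.91 to 10.7 FPKM in wild type and was at 4.80 and 5.20 FPKM in R6/1. Only the 8-week wild-type pool was high, since the 10-week and 1-year pools stood at 3.63 and 4.32 FPKM. Fosb, an AP-1 component that accumulates with repeated striatal stimulation, went from 3.05 to 7.24 FPKM and Fosl2 from 6.85 to 11.8 FPKM. Egr1, an immediate early zinc finger factor, was at 129 and 152 FPKM, and Arc, a regulator of AMPA receptor traffic, was lower at 74.96 and 63.9 FPKM. The 6 Elk and SRF family genes had a median of 0.18, with Elk1 at 20.3 and 23.5 FPKM and Srf at 20.4 and 21.3 FPKM.

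Clock genes leaned the same way. Of 21, 19 had a higher value and 2 were past 1.5-fold, with a median of 0.24, against 0.03 in R6/1. Rora, a nuclear receptor that activates the clock gene Arntl, went from 3.25 to 6.40 FPKM in wild type and from 4.04 to 7.32 FPKM in R6/1, but was at 1.14 FPKM in the 10-week pool. Bhlhe40, a clock repressor, went from 21.5 to 36.6 FPKM in wild type and was at 21.7 and 22.7 FPKM in R6/1, and its row shares its listed position with another gene. The clock output genes Tef and Dbp were at 114.2 and 133 FPKM and at 82.8 and 96.1 FPKM. The time of day of sampling is not given in the sources used here, and its part in these values was not tested. Of 20 glucocorticoid-induced genes, 1 was past 1.5-fold: Sgk1, a kinase of steroid and stress signalling, went from 27.3 to 50.3 FPKM in wild type and was at 36.7 and 40.8 FPKM in R6/1. The metallothioneins Mt1 and Mt2 were lower, at 436 and 345 FPKM and at 218 and 152 FPKM.

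Genes of other glial and vascular cells differed little in these pools. Of 33 astrocyte genes none was higher past 1.5-fold and 4 were lower, with a median of -0.04. Fabp7, given above, was joined by Itih3, an inter-alpha-trypsin inhibitor heavy chain (21.2 and 10.8 FPKM), Sparc, a matricellular protein (257 and 154 FPKM), and Agt, angiotensinogen (24.4 and 15.2 FPKM). The change of Agt was -0.65 before and -0.56 after the length adjustment, where it was no longer past 1.5-fold. In R6/1 the changes of Fabp7, Itih3, Sparc and Agt were -0.66, -0.34, -0.15 and 0.15. The abundant Sparcl1 was at 549 and 554 FPKM, and Glul, glutamine synthetase, at 417 and 466 FPKM. None of 23 microglia and complement genes was past 1.5-fold, and their median was 0.06, with C1qa at 43.6 and 42.6 FPKM. None of 26 endothelial and mural cell genes was past it either, with a median of 0.05. Of 41 collagen and fibroblast matrix genes, 27 had a lower value and the median was -0.10. Eln (elastin) went from 4.29 to 2.16 FPKM, and Col8a1 was higher, from 1.11 to 2.999 FPKM in wild type, while in R6/1 it was at 1.41 and 1.38 FPKM. Interferon-stimulated, MHC class I and MHC class II genes had medians of -0.04, -0.08 and -0.05 with none past 1.5-fold among 32, 14 and 5.

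House-keeping lists of short transcripts had slightly lower values at 8 weeks. Of 73 nuclear genes of oxidative phosphorylation, whose transcripts have a median length of 1141 bases, 68 had a lower value, none was past 1.5-fold, and the median of -0.11 became -0.02 with the length adjustment. Cox4i1 was at 797 and 749.5 FPKM and Atp5b at 670 and 664 FPKM. Of 74 cytosolic ribosomal protein genes, 63 had a lower value, and the median of -0.13 likewise became -0.02. In R6/1 the same lists had medians of 0.05 and 0.02. The 34 proteasome genes had a median of -0.08 that became 0.02, and the medians of translation factors (-0.04), glycolysis (0.02) and heat shock and chaperone genes (-0.01) were close to that of all genes. Rpl26, a ribosomal protein, was at 1.51 FPKM in the 4-week pool and near 0 at 8 weeks. Its R6/1 values were 1.98 and 3.60 FPKM, so this gene of many processed copies is given without a fold. Of 26 cytoskeleton genes 17 had a lower value, with a median of -0.11 that became -0.01, and Tmsb4x (thymosin beta 4) was at 1103 and 892 FPKM.

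Growth factors and imprinted growth genes had a median of -0.01 over 31 but held several large values. Dlk1, a Delta-like ligand that is imprinted and most abundant around birth, went from 17.5 to 6.81 FPKM in wild type and from 13.4 to 7.64 FPKM in R6/1. Peg10, a paternally expressed retrotransposon-derived gene, went from 23.9 to 11.4 FPKM in wild type and from 16.6 to 7.72 FPKM in R6/1. Magel2, of the Prader-Willi region, went from 4.97 to 2.18 FPKM, and Gpc3, a glypican that restrains growth, from 5.27 to 2.83 FPKM, whereas in R6/1 they had changes of 0.08 and -0.13. Igf2 and Igfbp2, which choroid plexus and meninges express, were higher past 1.5-fold in wild type, Igf2 at 16.8 and 26.3 FPKM against 18.3 and 18.1 FPKM in R6/1, and Igfbp2 at 21.0 and 37.6 FPKM against 23.5 and 23.03 FPKM. Among 27 neurotrophins and their receptors, Erbb4 was higher past 1.5-fold (4.85 and 7.91 FPKM) and Ret, the receptor of GDNF, lower (2.27 and 0.870 FPKM). Srd5a1, a 5-alpha reductase of neurosteroid synthesis, went from 11.1 to 6.33 FPKM in wild type and from 11.48 to 6.62 FPKM in R6/1. It was the 1 gene past 1.5-fold among 11 of sex steroid receptors and neurosteroid enzymes.

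Chromatin genes were close to level, with none of 43 past 1.5-fold and a median of -0.07. Of 12 canonical histone genes 10 had a lower value, with a median of -0.28 in wild type and -0.01 in R6/1. Hist1h4h, an H4 gene, went from 4.39 to 1.98 FPKM and Hist3h2ba, an H2B gene, from 39.7 to 23.1 FPKM, while Hist2h2bb, another H2B gene, was higher at 0.432 and 1.22 FPKM. Histone genes are near-identical copies, so reads could be split among them.

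Markers of neighbouring tissue moved with the comparison, choroid plexus, ependyma and the septum and hypothalamus with larger medians than the lists above. Of 18 choroid plexus epithelium genes, all had a higher value at 8 weeks in wild type and 17 were past 1.5-fold, with a median of 1.05. Their summed level went from 795 to 1974 FPKM. Ttr (transthyretin, the thyroid hormone carrier of cerebrospinal fluid) was at 545 and 1457 FPKM, Kcnj13 (an apical potassium channel) at 3.74 and 17.0 FPKM, Kl (klotho) at 4.90 and 16.1 FPKM, and Folr1 (the folate receptor) at 4.10 and 13.6 FPKM. The row of Kcnj13 shares its listed position with another gene. In R6/1 the median over the same genes was -0.02, with Ttr at 653 and 563 FPKM, and the 10-week wild-type pool was lower than the 4-week pool, with Ttr at 329 FPKM. The 8-week wild-type pool was thus the high one. In the authors' deposited table for 8 weeks, R6/1 was lower than wild type for Kl by -1.06 log2 units (q = 0.0016) and for Folr1 by -1.34 (q = 0.0016), while Ttr (q = 0.127) and Kcnj13 (q = 0.946) did not pass. Others of the largest wild-type changes in this group were F5 (coagulation factor V), Slc4a5 (a bicarbonate cotransporter) and Cldn2 (a claudin), with 1.25, 1.24 and 1.15. Wfdc2 and 1110059M19Rik, with 1.17 and 1.16, had R6/1 changes of -0.03 and -0.23, in the same pattern. The part of choroid plexus in any result here was not tested, and it moves with Igf2, Igfbp2 and Col8a1 above.

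Ciliated ependyma went the other way. All 6 of its genes had a lower value at 8 weeks, with a median of -0.66 in wild type and -0.78 in R6/1, and Tmem212, Ccdc153 and Rarres2 were lower past 1.5-fold. Tmem212 went from 7.44 to 2.81 FPKM in wild type and from 5.47 to 1.94 FPKM in R6/1, so that both 8-week pools were below both 4-week pools. The cell cycle and immature neuron lists above moved the same way in both genotypes. The part of ventricle wall in those lists was not tested.

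Of 16 septum and hypothalamus genes, all had a lower value at 8 weeks and 12 were past 1.5-fold, with a median of -1.10 in wild type and -0.51 in R6/1, and their summed level went from 347 to 165 FPKM. Oxt, the neuropeptide oxytocin of the hypothalamus (listed at chr2:130401908-130402724, build mm9), had the lowest change of all genes at -4.70. Oxt stood at 68.8 FPKM in the 4-week and 1.68 FPKM in the 8-week wild-type pool, at 18.7 and 3.94 FPKM in R6/1, and at 15.5 and 14.5 FPKM in the 10-week and 1-year wild-type pools. Within the 4-week authors' deposited table Oxt was lower in R6/1 than in wild type by -1.86 log2 units (q = 0.0145). Avp (vasopressin) was at 13.4 and 4.45 FPKM in wild type and at 10.6 and 10.4 FPKM in R6/1. Gal (galanin), Cartpt (a feeding-related peptide), Nts (neurotensin), Trh, and the septal factors Zic1, Zic2 and Zic4 were lower past 1.5-fold as well, with changes between -1.51 and -0.89. Zic1 was at 16.1 and 4.998 FPKM in wild type and 10.2 and 4.68 FPKM in R6/1. Of 15 thalamus and pallidum genes 11 had a lower value, with a median of -0.33, and 3 were past 1.5-fold. Of these Zic1 and Calb2 stand in other lists too, and Prkcd, a protein kinase C of thalamic relay neurons, went from 14.8 to 5.71 FPKM in wild type and from 7.52 to 4.58 FPKM in R6/1. In the authors' deposited 4-week table Trh and Prkcd were lower in R6/1 than in wild type by -0.94 and -0.96 log2 units (q = 0.0145 for each). Markers of these regions, and their level in the 4-week wild-type pool, therefore move with Trh, Calb2, Th, Dlk1, Magel2 and Peg10 above. Their part in those results was not tested.

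Of 18 cortical excitatory neuron genes 14 had a higher value, with a median of 0.21 in wild type and -0.17 in R6/1. Slc17a7, the vesicular glutamate transporter VGLUT1, was at 210 and 270 FPKM in wild type and 200 and 170 FPKM in R6/1. Bhlhe22, Nrn1 (neuritin) and Otof (otoferlin) were higher past 1.5-fold, and the cortical factor Neurod6 (12.6 and 10.6 FPKM) had a lower value. It was named for being a marker of cortical neurons, after its values were seen. The summed list was at 528 FPKM at 4 weeks and 618 FPKM at 8 weeks.

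Red blood cell genes were lower in both genotypes at 8 weeks. Of 5 compared, 4 were past 1.5-fold, with a median of -1.66 in wild type and -1.06 in R6/1. Hbb-b1 (adult beta globin) was at 32.6 and 6.76 FPKM in wild type and at 18.99 and 8.96 FPKM in R6/1, and Alas2 (the heme synthesis enzyme of erythroid cells) at 5.20 and 1.61 FPKM and at 4.04 and 1.42 FPKM. Hbb-b2, Hba-a1 and the globin row Beta-s had changes of -1.82, -1.66 and -1.71, and reads of these near-identical globins can be split among rows.

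**Figure D4:**
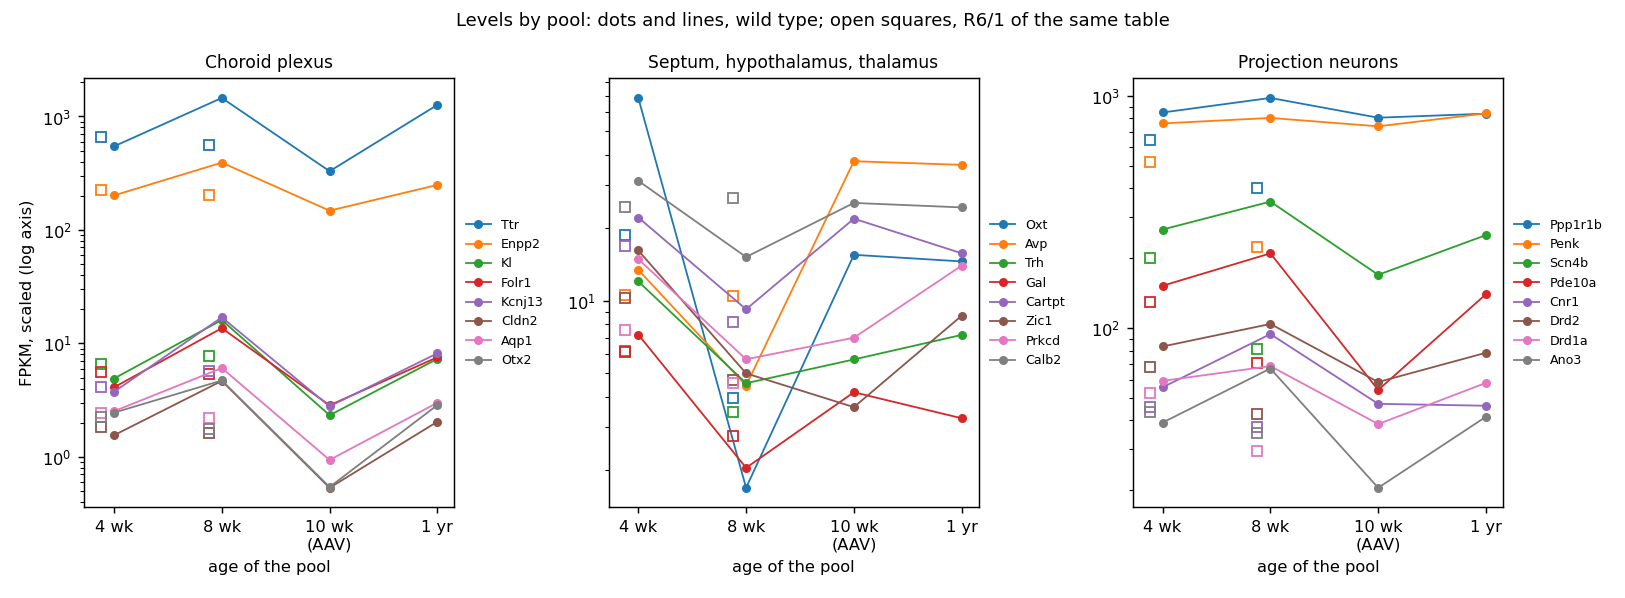
FPKM on a log axis by pool as before, for choroid plexus genes, genes of septum, hypothalamus and thalamus, and projection neuron genes. The choroid plexus lines peak at the 8-week wild-type pool, Oxt drops from 68.8 to 1.68 FPKM between the wild-type ages, and the R6/1 squares of Ppp1r1b, Penk and Scn4b lie below the wild-type dots.

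Several of the largest single changes were of genes that stand in none of these tissue lists. Cyp26b1, which degrades retinoic acid, went from 1.195 to 6.56 FPKM in wild type and from 1.08 to 3.88 FPKM in R6/1, and the older wild-type pools stood at 5.38 and 3.96 FPKM. Both 4-week pools were thus the lowest. In the authors' deposited table for 8 weeks Cyp26b1 was lower in R6/1 than in wild type by -0.77 log2 units (q = 0.0016). Slc30a3, the zinc transporter ZnT3 that loads synaptic vesicles of corticostriatal terminals, went from 14.3 to 38.1 FPKM in wild type and from 14.8 to 26.7 FPKM in R6/1, with 65.4 and 23.5 FPKM in the older pools. Cortical neuron markers moved with it in wild type, and their part was not tested. Igfn1, an immunoglobulin and fibronectin domain gene, went from 0.487 to 2.82 FPKM in wild type and from 0.666 to 1.81 FPKM in R6/1. Among the lower genes, Gdf1 was at 10.1 and 0.854 FPKM in wild type but at 1.01 and 5.35 FPKM in R6/1, and its row shares its listed position with another gene, so its values are uncertain. A230065H16Rik, a non-coding transcript, went from 10.9 to 1.74 FPKM in wild type and from 4.78 to 2.51 FPKM in R6/1.

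**Figure D5:**
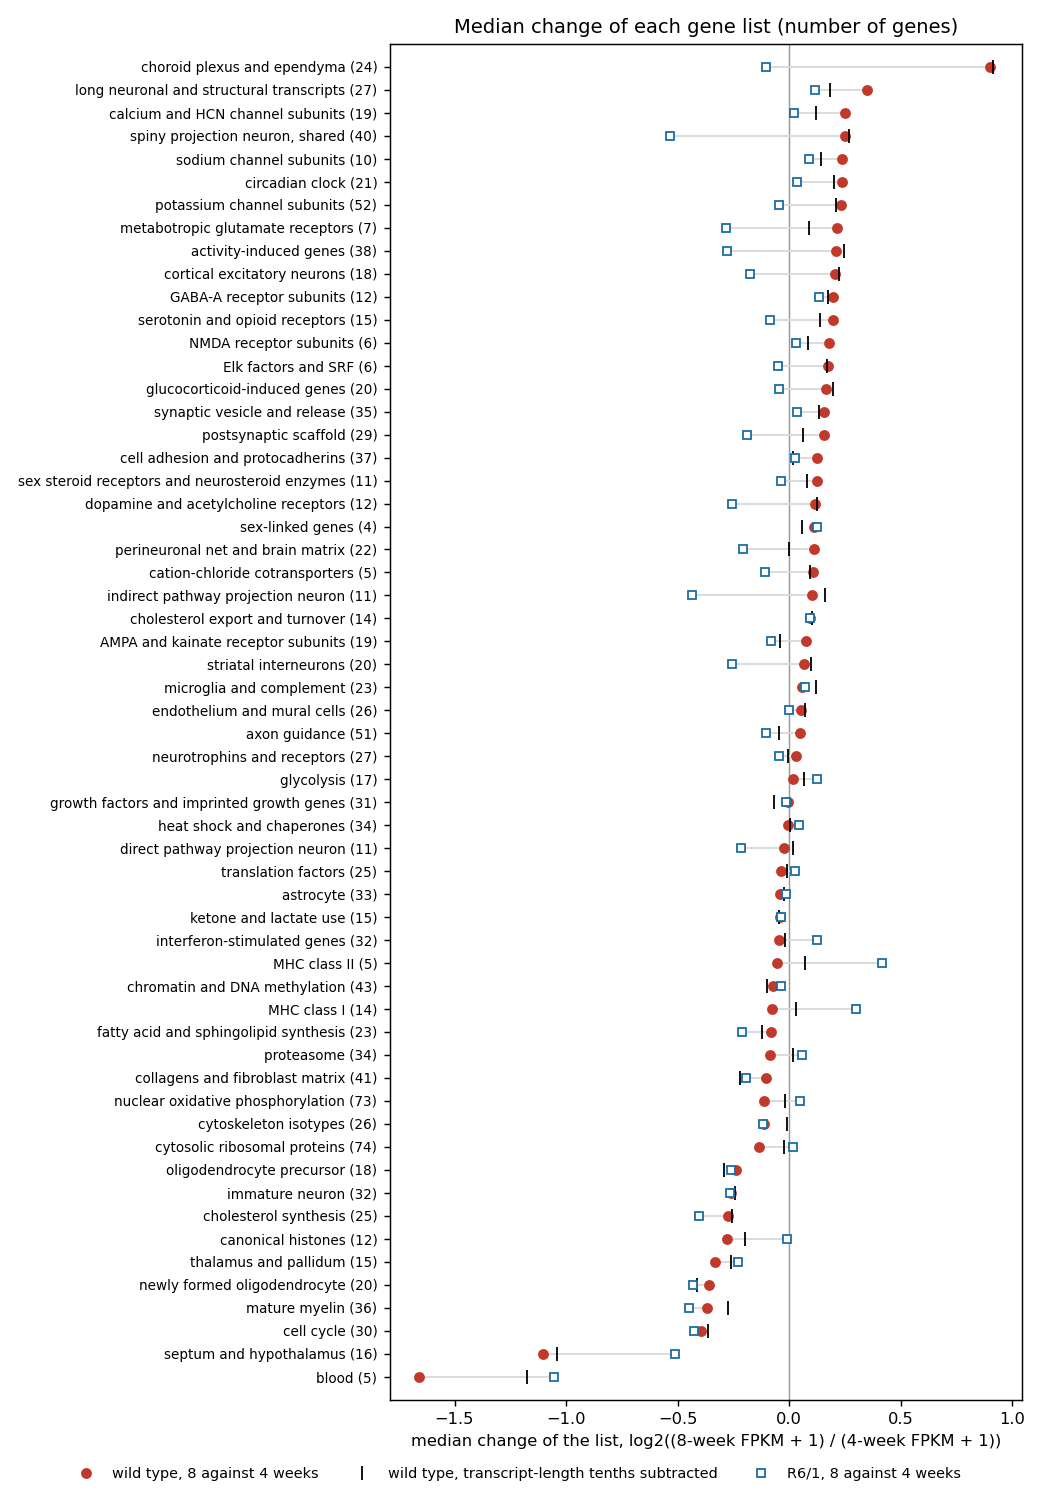
Median change of each of the 58 gene lists on the x axis (log2 scale, 8 against 4 weeks), with the number of genes compared in brackets, for wild type (red dots), wild type with the length adjustment (black ticks) and R6/1 (open squares). Cell cycle, myelin, newly formed oligodendrocyte, immature neuron and cholesterol synthesis lists lie at or below -0.26 in both genotypes, while the shared projection neuron list lies at 0.25 in wild type and -0.53 in R6/1.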

How the data were processed

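RNA of mouse striatum was sequenced with the TruSeq kit, per the labels' protocols. Reads were processed with Cufflinks, Cuffdiff, TopHat and Bowtie on build mm9, per the submitters' processing notes, which state no version. The authors deposited 1 table per comparison, and each holds 1 FPKM value per gene and group. The log2 fold change and q-value of R6/1 against wild type, copied where quoted, are the deposited ones. Depth and read counts are unknown, and values per library were not analysed here. Which strandedness and annotation were used is not given in the sources used here.

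Columns were joined on symbols unique to 1 row in each table (14193), 17 small RNA rows were left out, and the 8-week values were multiplied by 1.0015 to equal medians. The 10-week and 1-year columns were scaled over the 12853 rows shared by 4 tables. Changes are log2 ratios after adding 1 FPKM, for genes with a mean of at least 0.5 FPKM, and called means past 1.5-fold. No test was possible. The computation was checked on simulated data that left out weakly expressed genes, so the check does not cover genes of low FPKM. Named genes are the 15 highest and 15 lowest changes and, for each list described, its members past 1.5-fold and up to 4 of its most abundant members, and others are marked where named. Some genes that this rule names are not reported here. Genes that illustrate a list without being past 1.5-fold or among its 4 most abundant were picked after their values were seen. The genes, the comparison and the 58 lists were chosen with earlier results of these data known. Of the genes compared, 13.2% share their listed position with another row, so their reads may be shared. Transcript lengths are from GENCODE M21 and used for length only, and promoters are from RefSeq. Alternatives were another added constant, minimum, scaling, length adjustment and leaving out shared positions. Python 3.11.15, pandas 2.3.3, numpy 2.4.6 and scipy 1.17.1 were used.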

Additional observations from a re-analysis of the deposited data

Results flagged for a closer look

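The median change from 4 to 8 weeks had opposite signs in wild type and in R6/1 for 27 of the 58 gene lists, and for 10 of these both medians lay at least 0.1 from 0. In these 10 the medians, in log2 units, were 0.25 in wild type and -0.53 in R6/1 for the shared spiny projection neuron genes and 0.10 and -0.43 for the indirect pathway genes. For metabotropic glutamate receptors they were 0.21 and -0.28, for dopamine and acetylcholine receptors 0.12 and -0.26, for postsynaptic scaffold genes 0.16 and -0.19, and for activity-induced genes 0.21 and -0.28. Perineuronal net and brain matrix genes had 0.11 and -0.21, but the wild-type median was 0.0006 with the length adjustment, which also brought metabotropic receptors to 0.09 and postsynaptic scaffold genes to 0.06. The cation-chloride cotransporters had 0.11 and -0.11. Among neighbouring-tissue lists, choroid plexus and ependyma genes together had 0.90 and -0.11. Taken apart, choroid plexus epithelium had 1.05 and -0.02 and ependyma -0.66 and -0.78, so neither shows the opposite signs at that size. The cortical excitatory neuron genes had 0.21 and -0.17. With 1 pool per group the difference between the genotypes was not tested for any of these lists.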

How the results depend on the processing

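The alternatives were run on both counts, the 58 list medians and 133 named genes, and no named gene changed sign. Adding 0.1 FPKM in place of 1 gave 322 genes higher past 1.5-fold and 372 lower, against 164 and 170. It also gave medians of -0.62 for cell cycle, 0.19 for perineuronal net and brain matrix, -1.33 for septum and hypothalamus, -0.41 for thalamus and pallidum and, as median log2 change, blood -1.81. A minimum of 2 FPKM gave -0.26 for cell cycle and 0.20 for dopamine and acetylcholine receptors. The length adjustment gave -0.27 for mature myelin, -0.22 for collagens, 0.0006 for perineuronal net and brain matrix, 0.083 for NMDA, -0.039 for AMPA and kainate and 0.089 for metabotropic receptors. It gave 0.14 for sodium channels, 0.12 for calcium and HCN channels, 0.064 for postsynaptic scaffold, -0.046 for axon guidance, 0.0185 for cell adhesion and 0.18 for long transcripts. For oxidative phosphorylation it gave -0.0178, for ribosomal proteins -0.0224, proteasome 0.0157, MHC class I 0.0327, MHC class II 0.0726, blood -1.18 (over 3 genes with a length), histones -0.20 and cytoskeleton -0.0106. The length adjustment turned the sign of 8 medians, those of AMPA and kainate receptors, axon guidance, proteasome, both MHC lists and, all near 0, direct pathway, neurotrophin and heat shock genes. Medians not given here moved by less than 0.0747, the median difference of 2 pools within the 4-week table. Of the 133 named genes, 117 stayed past 1.5-fold under every alternative that gave a value, and 16 did not under the length adjustment. Scalings shifted the median of all genes by 0.01 at most.

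No paired analysis was possible because the tables hold 1 pooled value per group, and for the same reason leaving out a library and a limma fit were not run. Age and table cannot be told apart, depth is unknown, and no difference between ages has an error.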

Other observations

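Some genes were listed in 1 of the 2 tables only and entered no comparison. Without small RNAs, 321 symbols were listed at 4 weeks only, with a median of 0.546 FPKM in wild type, and 106 at 8 weeks only, with a median of 0.509 FPKM. The most abundant at 4 weeks only were Sln (sarcolipin, 2.53 FPKM), Asb4 (1.66 FPKM), 1700024G13Rik (1.62 FPKM), Pbk (a mitotic kinase, 1.61 FPKM), Prdm12 (1.55 FPKM) and Gabre (a GABA-A receptor subunit, 1.54 FPKM). Among those at 8 weeks only was Pappa2 (1.18 FPKM).

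A few further genes, picked after their values were seen, moved alike in both genotypes. Neat1, the long RNA that scaffolds nuclear paraspeckles, was at 21.8 FPKM at 4 weeks and 48.2 FPKM at 8 weeks in wild type, at 22.0 and 41.3 FPKM in R6/1, and at 90.1 FPKM in the 1-year wild-type pool. Spp1 (osteopontin) was at 2.55 and 6.54 FPKM in wild type and at 3.50 and 8.79 FPKM in R6/1. Ptgds, the prostaglandin D synthase of meninges and oligodendrocytes, was at 143 and 240 FPKM in wild type, at 147 and 390 FPKM in R6/1 and at 654 FPKM in the 10-week pool. Y-linked genes were nearly level between the wild-type ages, with Eif2s3y at 21.6 FPKM at both wild-type ages and Ddx3y at 13.9 and 15.5 FPKM.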
